A study of Mus musculus with 8 samples.

Results

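Genes of 10 myeloid C-type lectin receptors were selected by symbol, and 9 of these 10 had a row among the 13786 genes of the table. They were Clec4a1, Clec4a2, Clec4a3, Clec4b1, Clec4d, Clec4e, Clec4n, Clec5a and Clec12a. Clec7a, which encodes the β-glucan receptor Dectin-1, was not analysed here; all 13786 rows carry the type protein coding, and GENCODE M21 lists Clec7a as a polymorphic pseudogene. RNA was sequenced from CD11c-positive splenocytes of untreated 7-week-old female mice, in 4 samples of the control strain C57BL/6 and 4 of the lupus-prone strain B6.SLE123. The sources do not say that each sample is 1 animal, and a sample is called a mouse here for short. B6.SLE123 is a C57BL/6 congenic strain with the lupus susceptibility intervals Sle1, Sle2 and Sle3, which lie on chromosomes 1, 4 and 7. The labels call the cells dendritic cells. CD11c, the product of Itgax, is found on some macrophages and lymphocytes too, and selection on CD11c does not exclude them.

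C-type lectin receptors are membrane proteins of phagocytes and dendritic cells that bind sugars, glycolipids or products of damaged cells. Activating members signal through an immunoreceptor tyrosine-based activation motif, carried by the Fc receptor γ chain (Fcer1g) or by DAP12 (Tyrobp), which recruits the kinase Syk and then the CARD9, BCL10 and MALT1 complex that activates NF-κB. Inhibitory members carry an inhibitory motif of their own, which recruits the phosphatases SHP-1 (Ptpn6) and SHP-2 (Ptpn11). Many of the genes lie side by side in the Dectin-2 and Dectin-1 gene clusters.

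Library depth, as total counts, ran from 25761789 to 32931045 in C57BL/6 mice and from 25563070 to 37367094 in B6.SLE123 mice. Pairs of mice of a strain differed by more than sampling noise, with chi-square values of 4.96 to 18.9 per degree of freedom. All 8 pan-dendritic marker genes, Itgax, Flt3 and Zbtb46 among them, were detected in every mouse and were higher in B6.SLE123, against 26.7% of all genes. Genes listed as red pulp macrophage markers were also detected in both strains. That list holds C1qa, C1qb, C1qc and Csf1r, which the paper reports in splenic monocyte-related dendritic cells. From this sequencing the paper reports the C1q transcripts as lower in B6.SLE123. In its single-cell data from T cell-depleted spleens of older mice, it reports an expansion of monocyte-related dendritic cells in that strain. The 13 red pulp macrophage genes summed to between 13593 and 17465 CPM (counts scaled to a common library size with the trimmed mean of M values, TMM) in C57BL/6 mice. They summed to between 2079 and 4004 CPM in B6.SLE123 mice. All 13 were lower in B6.SLE123, against 26.6% of all genes, and none was at 0.

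Of the 9 receptor genes, 7 passed an adjusted p of 0.05 as lower in B6.SLE123 (quasi-likelihood test of edgeR), and 26.6% of all genes did so. None was called higher, where 26.7% of all genes were. The fall was more than 2-fold for 6 of the 9, against 8.29% of all genes, and none rose as much, against 2.76%. The median log2 fold change of the 9 genes was -1.30, beside -0.002 for all genes. The receptor genes were chosen with earlier results of these data known, so these comparisons with all genes only describe them. The 4 values of each strain did not overlap for the same 7 genes, all lower in B6.SLE123, a state found for 24.5% of all genes and, in either direction, for 48.9%. For each of these 7, the exact two-sided permutation test of log2 CPM gave p = 0.0286, the smallest p that 4 against 4 can give. Full separation of the strains fixes this p, so it restates the lack of overlap and adds no support. In this bulk RNA, fewer cells of a type and less RNA per cell cannot be told apart, and the part of the macrophage markers in these results was not tested.

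**Figure D1:**
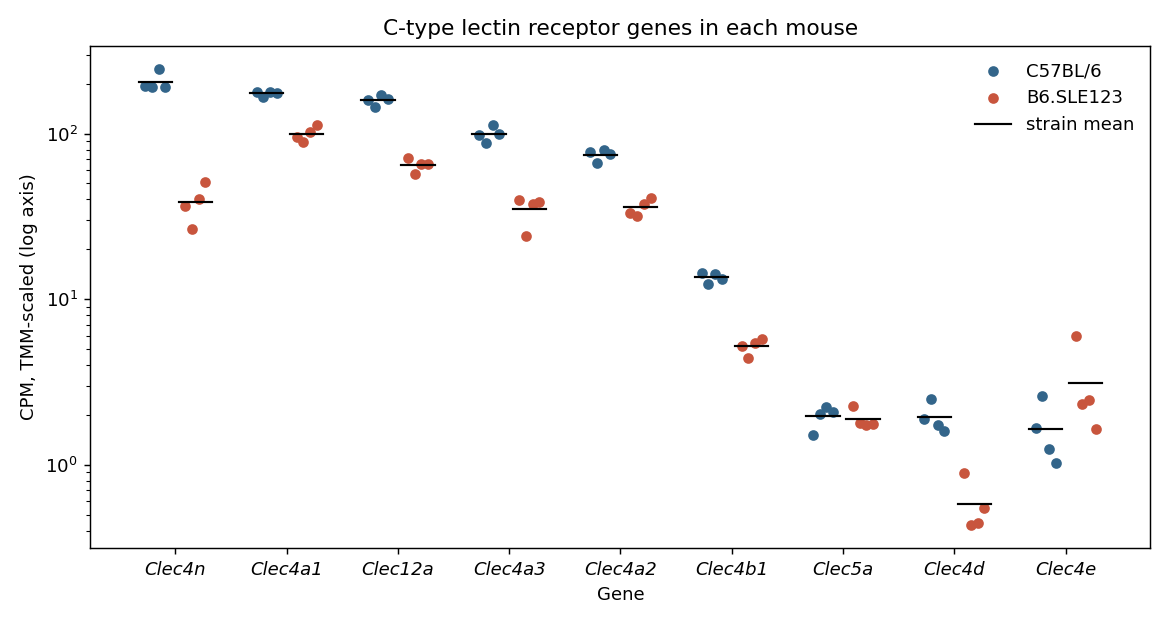
CPM of each receptor gene on a log axis, with a point for each mouse and a bar at the strain mean (n = 4 per strain). The strains are fully separated for 7 genes, with B6.SLE123 below, and overlap for Clec5a and Clec4e.

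The receptors that pair with the Fc receptor γ chain gave the largest fall and the only higher mean. Clec4n encodes Dectin-2, which binds α-mannans of fungi. It stood at 194, 191, 246 and 191 CPM in the C57BL/6 mice and at 36.5, 26.4, 40.3 and 50.7 CPM in the B6.SLE123 mice. Every B6.SLE123 mouse lay far below every control. The means were 206 ± 27.0 and 38.5 ± 10.05 CPM (SD, n = 4), a 5.37-fold fall (log2 fold change -2.42, standard error 0.17, edgeR adjusted p = 1.04e-06). Only 292 of the 13786 genes had a lower log2 fold change than Clec4n.

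Clec4b1 encodes an activating receptor for mycobacterial glycolipids. It was at 14.3, 12.4, 14.3 and 13.3 CPM in C57BL/6 and at 5.19, 4.41, 5.44 and 5.75 CPM in B6.SLE123. The mice of each strain lay close together while the strains did not overlap, and the log2 fold change was -1.39 (standard error 0.10, edgeR adjusted p = 1.12e-06).

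Clec4d and Clec4e encode MCL and Mincle, which form a receptor complex for mycobacterial cord factor, and Mincle also senses a protein released by dying cells. Clec4d was scarce. It had 50, 65, 57 and 48 counts in the C57BL/6 mice and 28, 16, 15 and 14 counts in the B6.SLE123 mice. The counts were lower in every B6.SLE123 mouse, although the median depth of that strain was the larger one. Clec4d fell 3.33-fold, a log2 fold change of -1.74 (standard error 0.27, edgeR adjusted p = 0.000258).

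Clec4e had 44, 68, 41 and 31 counts in C57BL/6 and 190, 86, 83 and 42 counts in B6.SLE123. B6.SLE123 replicate 1 was far above the other mice, and the strains overlapped. The log2 fold change was 0.95 (standard error 0.41, edgeR adjusted p = 0.0728; exact permutation p = 0.2). Without B6.SLE123 replicate 1 it was 0.41 (edgeR adjusted p = 0.278). Without B6.SLE123 replicate 4 it was 1.13 (edgeR adjusted p = 0.0334), and without C57BL/6 replicate 2 it was 1.25 (edgeR adjusted p = 0.0354), so single libraries decided this call.

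Both inhibitory receptors fell. Clec12a encodes MICL, which restrains responses to uric acid crystals from dead cells. It was at 160, 145, 172 and 161 CPM in C57BL/6 mice and at 71.1, 57.2, 65.9 and 65.3 CPM in B6.SLE123 mice. Each strain spanned a narrow range and the gap between them was wide. The 2.46-fold fall had the smallest adjusted p of the 9 genes (log2 fold change -1.30, standard error 0.07, edgeR adjusted p = 3.71e-07).

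Clec4a2 encodes DCIR1, a receptor of dendritic cells with an inhibitory motif. Its CPM was 77.1, 66.3, 79.6 and 74.7 in C57BL/6 and 32.9, 31.8, 37.5 and 41.1 in B6.SLE123. All B6.SLE123 mice lay below all controls, and the log2 fold change was -1.06 (standard error 0.08, edgeR adjusted p = 2.47e-06). Summed over both inhibitory receptors, the mice ranged from 210.8 to 251 CPM in C57BL/6 and from 89.1 to 106 CPM in B6.SLE123. The sum over the genes of the γ chain partners ranged from 207 to 263 CPM in C57BL/6 and from 33.6 to 58.7 CPM in B6.SLE123. Clec4n made up 92.3% of the latter sum in C57BL/6 and 81.2% in B6.SLE123.

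The close relatives of DCIR1 fell by different amounts. Clec4a1, which encodes DCIR4, was at 179, 166, 179 and 175 CPM in C57BL/6 and at 95.3, 88.4, 103 and 112 CPM in B6.SLE123. The strains were apart, but the change was the smallest of those called, and the log2 fold change was -0.81 (standard error 0.07, edgeR adjusted p = 2.99e-06). Clec4a3, which encodes DCIR3, was at 98.1, 88.1, 113 and 99.5 CPM in C57BL/6 and at 39.8, 24.1, 37.3 and 38.8 CPM in B6.SLE123. B6.SLE123 replicate 2 was lowest and the other B6.SLE123 mice were close together. The log2 fold change was -1.52 (standard error 0.14, edgeR adjusted p = 6.66e-06).

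Clec5a, whose product MDL-1 pairs with DAP12, was at 1.51, 2.03, 2.23 and 2.09 CPM in C57BL/6 and at 2.28, 1.77, 1.75 and 1.77 CPM in B6.SLE123. The strains overlapped almost entirely. With 40 to 73 counts per mouse and a log2 fold change of -0.06 (standard error 0.17, edgeR adjusted p = 0.794), no difference was detectable at this depth.

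Divided by the length of their annotated exons, the levels in C57BL/6 ran from Clec4n at 145 CPM per kb through Clec4a1 at 112, Clec4a3 at 75.2, Clec12a at 28.8, Clec4a2 at 25.4 and Clec4b1 at 17.3 CPM per kb. Clec4d at 1.21, Clec5a at 0.512 and Clec4e at 0.330 CPM per kb were far lower. Clec12a overlapped Clec4a2 and Clec5a overlapped Clec4e between mice, and the other neighbours in this order did not overlap. In B6.SLE123 the order began with Clec4a1 at 63.9 CPM per kb. Clec4n at 27.1 and Clec4a3 at 26.4 CPM per kb followed and overlapped each other. Clec4a2 at 12.2 and Clec12a at 11.7 CPM per kb also overlapped, with Clec4b1 at 6.63 CPM per kb below them. Clec4e, Clec5a and Clec4d, at 0.626, 0.493 and 0.361 CPM per kb, could not be ordered, since each overlapped the next. Some mice stood at an end of their strain for most receptor genes. C57BL/6 replicate 3 was the highest control for 6 of 9, and B6.SLE123 replicate 2 was the lowest of its strain for 7 of 9.

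All 9 genes lie on chromosome 6 in mm10, which is none of the 3 chromosomes of the Sle intervals. Clec5a stands alone from 40574894 to 40585821. The Dectin-2 cluster holds 7 of them, from the start of Clec4a1 at 122921848 to the end of Clec4e at 123289870, and Clec12a lies in the Dectin-1 cluster from 129342691 to 129365303. Of the other 694 genes of chromosome 6, 26.7% were lower and 9.37% were lower by more than 2-fold, close to the shares of all genes. Of the 24 other genes within 300 kb of a receptor gene, 6 were lower, 5 were higher and 13 were not called. The share called was 45.8%, against 53.4% of all genes. Among these neighbours, 2 were lower and 1 was higher by more than 2-fold, against 8.29% and 2.76% of all genes. Clec1b was at 45.7 ± 6.11 CPM in C57BL/6 and 8.71 ± 2.35 CPM in B6.SLE123 (SD, n = 4), with a log2 fold change of -2.40 and an edgeR adjusted p of 1.04e-06. C3ar1, the receptor for complement C3a, had a log2 fold change of -1.42 (edgeR adjusted p = 0.000615). Mgam2-ps had one of 1.56 (edgeR adjusted p = 0.000123) at a level of a few CPM.

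Inside the Dectin-2 cluster, 2 further genes were not called lower. Clec4a4 encodes DCIR2, an inhibitory receptor of type 2 conventional dendritic cells, and lies between Clec4a3 and Clec4b1. It was at 55.7, 59.2, 57.4 and 71.0 CPM in C57BL/6 and at 62.5, 68.3, 72.0 and 80.1 CPM in B6.SLE123. The strains overlapped, and the log2 fold change of 0.22 was not called (edgeR adjusted p = 0.0596). It was called without B6.SLE123 replicate 1 (0.27, edgeR adjusted p = 0.0268) and without C57BL/6 replicate 4 (0.29, edgeR adjusted p = 0.0115). Clec4b2, a relative of Clec4b1, lies between Clec4a2 and Clec4n. It was at 5.49, 3.92, 4.06 and 3.48 CPM in C57BL/6 and at 8.70, 6.18, 6.89 and 8.03 CPM in B6.SLE123. It was higher in every B6.SLE123 mouse, and the log2 fold change was 0.82 (standard error 0.16, edgeR adjusted p = 0.00123). Reads could be shared within the family: 6.83% of the 50-base stretches of Clec4a2 transcripts also occur in another gene, most of them in Clec4a4, and 8.68% of those of Clec4b1 occur in Clec4a2. For Clec4a1, Clec4a3, Clec4d, Clec4e and Clec5a the share was 0%. For Clec4n it was 0.69% and for Clec12a 0.46%. Clec4a4 had the highest share, 15.68%, all of it with Clec4a2, and this touches the ratio of these genes given next. Clec4a2 also overlaps the processed pseudogene Gm44132 on the same strand.

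**Figure D2:**
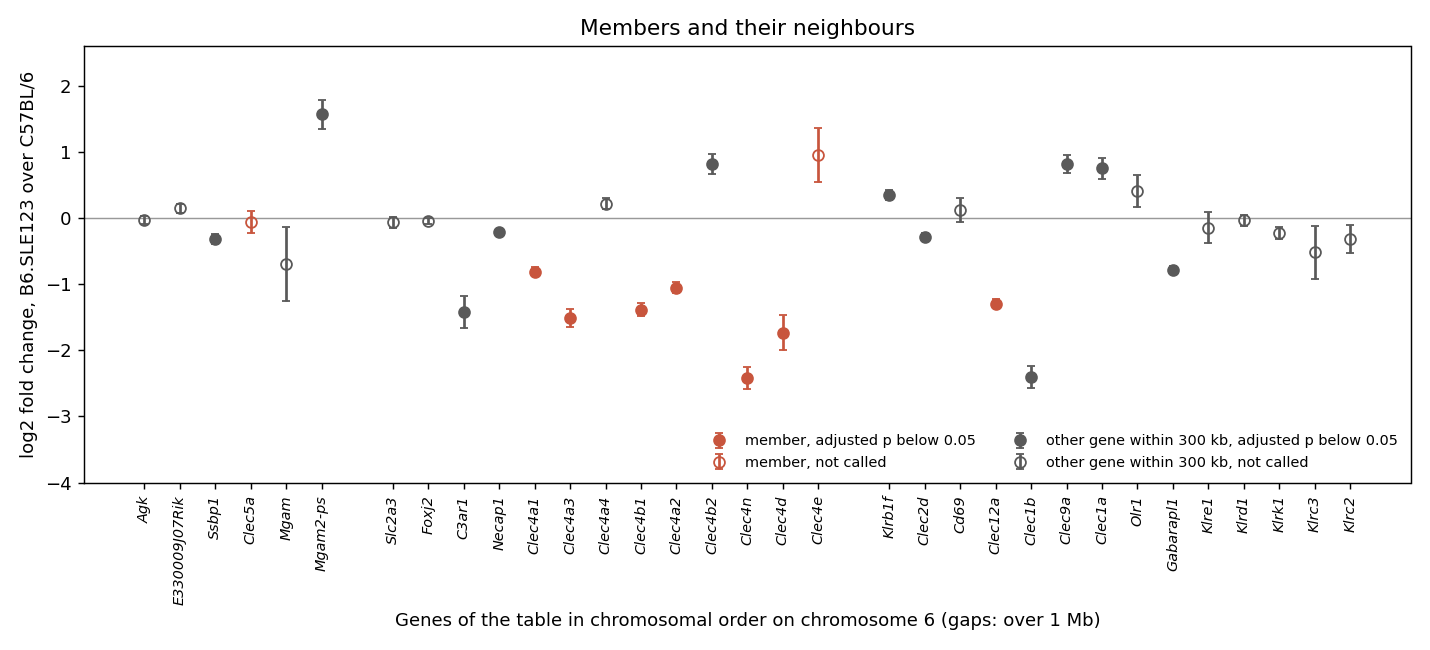
Log2 fold change (B6.SLE123 over C57BL/6, bars are standard errors, n = 4 per strain) of the receptor genes and of other genes within 300 kb, in chromosomal order. From Clec4a1 to Clec4d the receptor genes lie below 0, while Clec4a4 and Clec4b2, which stand among them, lie above 0.

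Ratios within a mouse show the shifts between these genes without a scaling factor. The pairs were chosen after the values were seen and are given with no test. Clec4e over Clec4d was 0.823 ± 0.178 in C57BL/6 and 5.17 ± 1.58 in B6.SLE123 (SD, n = 4). Clec4b1 over Clec4b2 was 3.28 ± 0.521 against 0.704 ± 0.0799. Clec4a2 over Clec4a4 was 1.24 ± 0.175 against 0.507 ± 0.0276. Clec4n over Clec4a1 was 1.18 ± 0.135 against 0.382 ± 0.0636, and Clec4a1 over Clec4a3 was 1.76 ± 0.129 against 2.93 ± 0.541. No mouse of either strain reached the range of the other for these pairs. Clec4n over Mrc1, the gene of the mannose receptor, was 0.205 ± 0.0124 in C57BL/6 and 0.225 ± 0.0318 in B6.SLE123, and the strains overlapped.

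**Figure D3:**
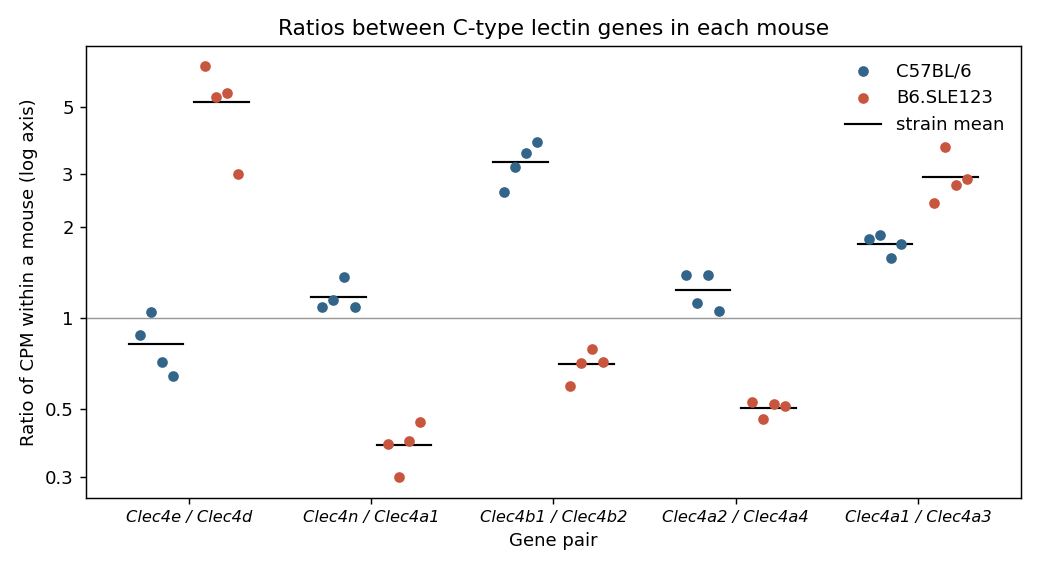
Ratio of the CPM of paired C-type lectin genes within each mouse on a log axis, with a bar at the strain mean (n = 4 per strain). The strains are separated for every pair shown. Clec4n over Clec4a1, Clec4b1 over Clec4b2 and Clec4a2 over Clec4a4 lie above 1 in every C57BL/6 mouse. In every B6.SLE123 mouse they lie below 1. Pairs with Mrc1 or Fcer1g are not shown, and of these Clec4n over Mrc1 and Clec12a over Fcer1g overlapped between strains.

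The series addresses the transcription factor PU.1. The letters GAGGAA, a form of its binding site, were searched on both strands of the 250 bases before the start site of each gene. The C1q probe that PU.1 bound in the paper holds neither these letters nor their reverse complement. A window without a match may therefore still hold a PU.1 site. The windows come from RefSeq (GRCm38.p6), which has entries for 9 of the 10 named genes and not for Clec4n. The letters GAGGAA or their reverse complement TTCCTC occur in 23.3% of 32851 windows of this length and in at least 1 window of 25.9% of 27025 genes. Of the 9 receptor genes with an entry, 8 hold a match in at least 1 window, Clec7a among them. The window at the earlier start site of Clec4a3 holds none. Clec4a2 has none in its window. The windows of Clec4a2 and Clec12a lie inside these genes as annotated in GENCODE M21, which start at 123106428 and 129342691. The bases before those annotated starts were not searched. The windows of Clec4b1 and Clec12a, which fell, that of Clec4a2, which fell and has no match, and those of Clec4e and Clec5a, which were not called, are shown 5′ to 3′ in the direction of the gene, with the matches in capitals.
Clec4b1 (chr6:123049712-123049961, plus strand): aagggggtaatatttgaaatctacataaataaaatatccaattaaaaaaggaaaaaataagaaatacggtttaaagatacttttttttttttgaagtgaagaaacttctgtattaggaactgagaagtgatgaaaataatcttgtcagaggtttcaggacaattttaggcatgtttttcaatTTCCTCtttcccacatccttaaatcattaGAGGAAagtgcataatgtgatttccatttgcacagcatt
Clec12a (chr6:129349994-129350243, plus strand): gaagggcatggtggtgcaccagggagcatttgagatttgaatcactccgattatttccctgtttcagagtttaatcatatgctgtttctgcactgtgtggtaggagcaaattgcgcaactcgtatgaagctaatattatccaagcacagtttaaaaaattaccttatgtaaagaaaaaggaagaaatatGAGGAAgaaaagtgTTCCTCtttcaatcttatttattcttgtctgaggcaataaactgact
Clec4a2 (chr6:123122440-123122689, plus strand): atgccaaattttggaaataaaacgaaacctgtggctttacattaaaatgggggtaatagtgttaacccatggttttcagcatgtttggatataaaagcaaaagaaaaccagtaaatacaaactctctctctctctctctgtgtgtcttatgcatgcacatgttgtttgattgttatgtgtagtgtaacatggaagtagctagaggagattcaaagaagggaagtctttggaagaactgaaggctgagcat
Clec4e (chr6:123289872-123290121, minus strand): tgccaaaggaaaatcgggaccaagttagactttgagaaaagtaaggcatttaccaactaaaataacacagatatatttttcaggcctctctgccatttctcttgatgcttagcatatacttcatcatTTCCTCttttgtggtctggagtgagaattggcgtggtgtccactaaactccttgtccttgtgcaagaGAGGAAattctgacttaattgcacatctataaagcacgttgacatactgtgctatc
Clec5a (chr6:40585806-40586055, minus strand): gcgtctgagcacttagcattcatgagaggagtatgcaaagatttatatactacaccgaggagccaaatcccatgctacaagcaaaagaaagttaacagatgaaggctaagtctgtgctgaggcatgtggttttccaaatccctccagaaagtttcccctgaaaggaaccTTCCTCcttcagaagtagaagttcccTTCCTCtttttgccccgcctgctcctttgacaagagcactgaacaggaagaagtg
In Clec4b1 the matches begin 68 and 39 bases before the start site and in Clec12a 61 and 47 bases before it. In Clec5a they begin 81 and 55 bases before the start site, and the nearer of the matches of Clec4e begins 56 bases before it. Whether PU.1 acts on any of these genes was not tested.

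The adaptor chains through which the activating receptors signal were lower too. All 3 on the list were called lower, against 26.6% of all genes, and their median log2 fold change was -0.60. Unlike the receptor genes, they lie on chromosomes that carry an Sle interval, Fcer1g on chromosome 1 from 171229572 to 171234365, and Tyrobp and Hcst side by side on chromosome 7 from 30413760 to 30419854. Whether they lie within the intervals was not tested. Fcer1g was at 313, 290, 324 and 334 CPM in C57BL/6 and at 136, 124, 141 and 161 CPM in B6.SLE123. Its 4 values per strain were well apart, and the log2 fold change was -1.17 (standard error 0.08, edgeR adjusted p = 7.27e-07). Tyrobp, which encodes DAP12, fell by 0.60 on the log2 scale (edgeR adjusted p = 8.19e-06), and Hcst, which encodes DAP10, fell by 0.60 as well (edgeR adjusted p = 0.000446). Relative to Fcer1g in the same mouse, Clec12a was at 0.506 ± 0.0202 in C57BL/6 and 0.464 ± 0.0470 in B6.SLE123 with overlap, while Clec4n was at 0.653 ± 0.0798 and 0.271 ± 0.0429 without overlap.

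Below the adaptors, of 17 genes of proximal activating signalling, 10 were lower, 3 were higher and 4 were not called, with a median log2 fold change of -0.15. Where 53.4% of all genes were called in either direction, 76.5% of this list were. Syk was at 644 ± 46.4 CPM in C57BL/6 and 486 ± 25.5 CPM in B6.SLE123 (SD, n = 4), a log2 fold change of -0.41 (edgeR adjusted p = 0.000175). Prkcd, the kinase that phosphorylates CARD9, fell by 0.15 on the log2 scale (edgeR adjusted p = 0.00594). Plcg2, a phospholipase acting after Syk, was higher, with a log2 fold change of 0.27 (edgeR adjusted p = 0.000478). The adaptor gene Blnk, which acts after Syk in B cells and was singled out after its values were seen, fell most of the list, from 43.8 ± 5.70 to 18.9 ± 3.95 CPM. Its log2 fold change of -1.22 (edgeR adjusted p = 3.67e-05) was the only one of the list beyond 2-fold.

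In the CARD9 and NF-κB arm, 7 of 24 genes were higher, 2 were lower and 15 were not called, and the median was 0.08. The called genes made up 37.5% of the list, against 53.4% of all genes. Card9 was at 65.6 ± 4.17 CPM in C57BL/6 and 64.4 ± 5.24 CPM in B6.SLE123, with a log2 fold change of -0.03 (edgeR adjusted p = 0.762). Bcl10 had a log2 fold change of 0.08 (edgeR adjusted p = 0.132). The paracaspase gene Malt1 was called higher by 0.22 (edgeR adjusted p = 0.0328). Leaving out a mouse ended this call for 6 of the 8 mice (edgeR adjusted p from 0.0633 to 0.0948), namely C57BL/6 replicates 1, 3 and 4 and B6.SLE123 replicates 2, 3 and 4.

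Of 10 inhibitory phosphatases and adaptors, 5 were higher, 4 were lower and 1 was not called, with a median of 0.02. That is 90% called, against 53.4% of all genes. When each mouse was left out in turn, 6 to 9 of the 10 were called, beside 6496 to 7013 of all genes. The one not called was Ptpn6, which encodes SHP-1, at a log2 fold change of -0.09 (edgeR adjusted p = 0.151). Ptpn11, which encodes SHP-2, was higher by 0.33 (edgeR adjusted p = 0.000117). Inpp5d, which encodes the lipid phosphatase SHIP-1, was higher by 0.13 (edgeR adjusted p = 0.0240), a call lost without B6.SLE123 replicate 2, C57BL/6 replicate 2 or C57BL/6 replicate 4 (edgeR adjusted p from 0.0627 to 0.102). The largest changes of the list, singled out after their values were seen, were falls of the inhibitory adaptor genes Dok2 and Dok3. Dok2 fell from 9.36 ± 1.78 to 3.74 ± 0.237 CPM (log2 fold change -1.33, edgeR adjusted p = 1.97e-05). Dok3 fell from 82.9 ± 6.68 to 33.0 ± 5.95 CPM (log2 fold change -1.33, edgeR adjusted p = 4.25e-06).

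Of 20 genes that these receptors, among others, are known to induce, 11 were lower, 3 were higher and 6 were not called, with a median of -0.40. Over all genes, 26.6% were lower and 26.7% higher. A fall of more than 2-fold was called for 7 of the 20, against 8.29% of all genes, and no rise of that size was called. Il1b, which encodes interleukin 1β, was at 144, 139, 137 and 187 CPM in C57BL/6 and at 81.6, 62.2, 55.5 and 72.8 CPM in B6.SLE123. The strains did not overlap, and the log2 fold change was -1.16 (standard error 0.13, edgeR adjusted p = 2.39e-05). In monocyte-related dendritic cells of older mice, the paper's single-cell data showed Il1b upregulated in B6.SLE123. The early response gene Egr1 fell by 1.61 on the log2 scale, its relative Egr2 by 1.04, the cyclooxygenase gene Ptgs2 by 1.32, and the chemokine genes Cxcl2, Ccl3 and Ccl4 by 1.71, 1.13 and 1.07. Their edgeR adjusted p lay between 3.39e-05 for Egr2 and 0.00222 for Cxcl2.

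**Figure D4:**
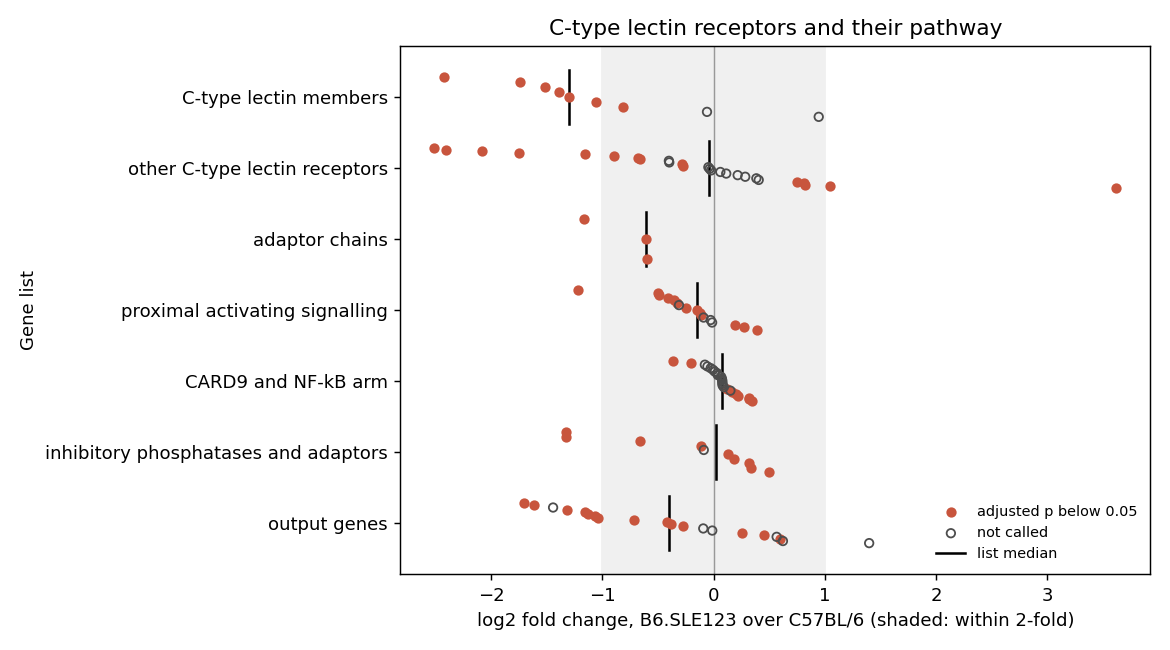
Log2 fold change (B6.SLE123 over C57BL/6) of every measured gene of the receptor list and of 6 pathway lists, filled where the edgeR adjusted p was below 0.05, with a bar at each list's median. The receptor genes and the adaptor chains lie mostly below 0, and the CARD9 and NF-κB arm lies within 2-fold of no change.

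Among 26 other C-type lectin receptors in the table, 10 were lower, 5 were higher and 11 were not called, and the median log2 fold change was -0.04. The share called, 57.7%, was close to the 53.4% of all genes. Against 8.29% of all genes, a fall of more than 2-fold was called for 5. Besides Clec1b, whose product CLEC-2 binds podoplanin, these were Mrc1 (log2 fold change -2.51, edgeR adjusted p = 3.03e-06), Cd302 (-2.08, edgeR adjusted p = 6.3e-07), Klra2 (-1.75, edgeR adjusted p = 9.65e-06) and Cd209b (-1.16, edgeR adjusted p = 0.00804). Cd209b, the SIGN-R1 gene of marginal zone macrophages, is the one of these whose strains overlapped. A rise of that size was called for 2, against 2.76% of all genes. Cd207, which encodes langerin, was at 15.4, 9.90, 15.9 and 15.3 CPM in C57BL/6 and at 201, 209, 165 and 123.1 CPM in B6.SLE123. It was higher in every B6.SLE123 mouse, and the log2 fold change was 3.62 (standard error 0.19, edgeR adjusted p = 2.65e-07). Ly75, which encodes the dendritic cell endocytic receptor DEC-205, had a log2 fold change of 1.04 (edgeR adjusted p = 2.22e-06).

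Marker lists of cell types that can carry these receptors moved unequally. For comparison, 26.6% of all genes were called lower and 26.7% higher. The red pulp macrophage list had a median log2 fold change of -2.37, and all 4 marginal zone macrophage genes were lower with a median of -1.93. These 4 summed to between 319 and 401 CPM in C57BL/6 and to between 56.9 and 105 CPM in B6.SLE123. Of 13 monocyte genes, 4 were lower and 2 were higher, with a median of -0.12, and they summed to between 1201 and 1262 CPM against 874 to 1049 CPM. Of 11 neutrophil genes, 4 were lower and 3 were higher, with a median of -0.23, and they summed to between 132 and 146 CPM against 38.5 to 62.4 CPM. Of 9 genes of type 2 conventional dendritic cells, 2 were lower and 1 was higher, with a median of -0.17 and sums of 2622 to 2817 CPM against 1792 to 2237 CPM. The type 1 list, with 7 of 9 genes higher and 1 lower, had a median of 0.82, and its sums were 3327 to 3807 CPM against 5000 to 6502 CPM. Of 8 B cell genes 7 were lower, with a median of -0.64, and they summed to between 506 and 603 CPM against 329 to 423 CPM. Of 7 erythroid genes 6 were lower, with a median of -2.72. Of 8 plasmacytoid dendritic cell genes 3 were lower and 2 higher, of 5 T cell genes 1 was lower and 1 higher, of 7 NK cell genes 1 was lower, and none of 4 platelet genes was called. No gene of these lists was at 0 in every mouse of a strain, and their part in the changes of the receptor genes was not tested. Clec9a and Cd209a among these markers are themselves C-type lectins of the other list, as are Cd209b, Clec4a4, Clec10a and Mgl2.

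**Figure D5:**
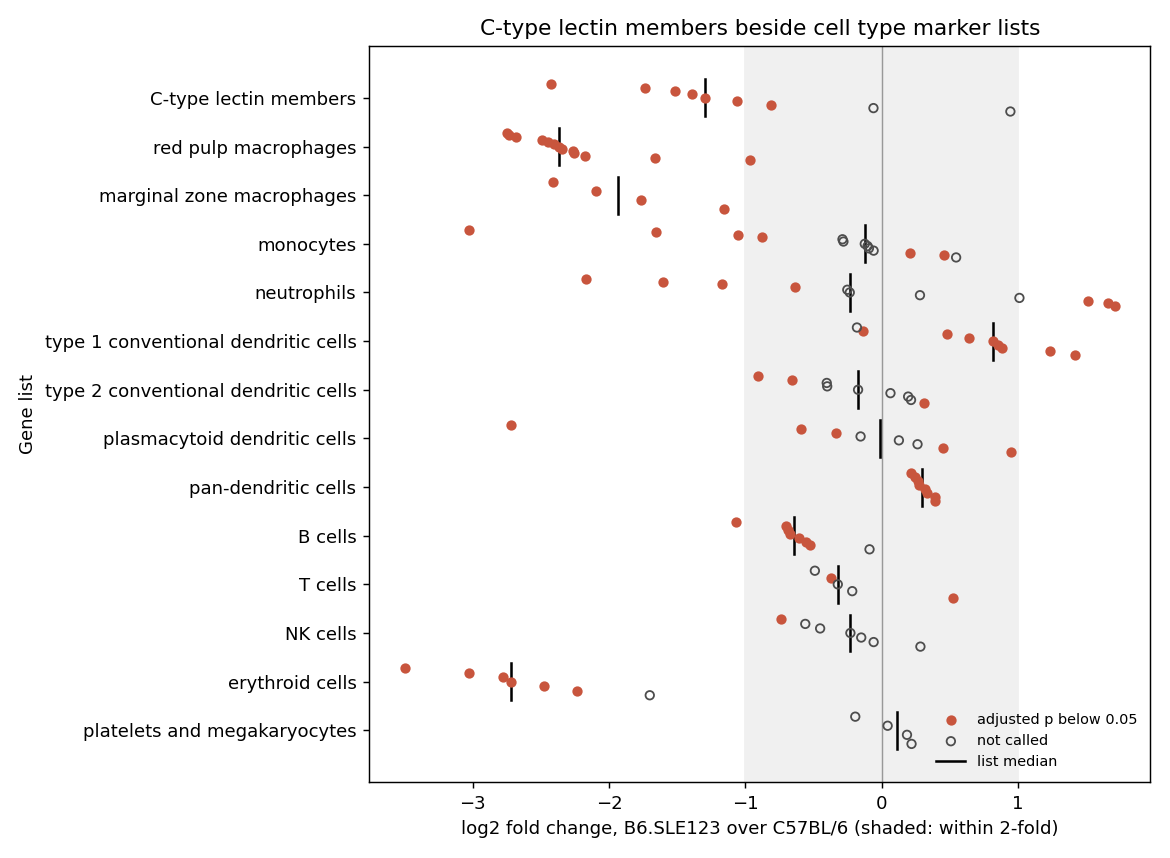
Log2 fold change (B6.SLE123 over C57BL/6) of the receptor genes and of every measured gene of 13 cell type marker lists, filled where the edgeR adjusted p was below 0.05, with a bar at each list's median. The median of the receptor genes, -1.30, lies between those of the macrophage lists and those of the monocyte and neutrophil lists.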

How the data were processed

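RNA of CD11c-positive splenocytes from 4 mice of each strain was sequenced after preparation with a stranded mRNA kit. According to the methods and labels, the authors used FastQC, cutadapt, STAR (genome mm10) and featureCounts; versions and the strand setting are not given in the sources used here. The deposited table holds raw counts per gene and mouse, without normalization, for 13786 protein-coding genes whose larger strain median is at least 5. It also holds the DESeq2 comparison of the authors (mean signal, fold changes, errors and p-values), which was not used. Strain and replicate come from the sample titles, since the number in the genotype label rises from sample to sample. The sources do not say whether a sample is 1 animal, so p-values measure the spread between these samples.

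Counts were scaled by TMM and compared by the quasi-likelihood F test of edgeR (4.0.16, under R 4.3.3) without covariates or a filter, and p-values were adjusted by Benjamini-Hochberg over all genes; the test was checked on simulated data. Log2 CPM used a prior count of 2. The named genes are the selected receptors, other C-type lectins and output genes past an adjusted p of 0.05 and a 2-fold change, the adaptor chains, Syk, Card9, Bcl10, Malt1, Plcg2, Prkcd, Ptpn6, Ptpn11 and Inpp5d, and up to 5 neighbours within 300 kb past the same limits. Clec4a4, Clec4b2, Blnk, Dok2, Dok3 and the gene pairs were singled out after their values were seen. The receptor genes and lists were chosen with earlier results of these data known. Alternatives were relative log expression factors, library totals, a replicate block, limma-voom (limma 3.58.1), DESeq2 1.42.0, a minimum of 10 counts per sample, and the omission of each mouse. Gene lengths and overlaps come from GENCODE M21. The labels name no batch.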

Additional observations from a re-analysis of the deposited data

Results flagged for a closer look

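In 7 of 84 groups of 4 mice, over the genes named in the text, 1 mouse lay apart from the other 3, against 4.2 groups expected if chance marks 1 in 20. Of these, 3 concern receptor genes. Clec4a3 was at 4.59 log2 CPM in B6.SLE123 replicate 2, where the others lay from 5.23 to 5.32. Clec4n was at 7.94 log2 CPM in C57BL/6 replicate 3, where the others lay from 7.58 to 7.60. Clec5a was at 1.23 log2 CPM in B6.SLE123 replicate 1, where the others lay from 0.86 to 0.88. The other 4 were Cd207 at 3.32 in C57BL/6 replicate 2, Malt1 at 8.24 in B6.SLE123 replicate 1, Il1b at 7.54 in C57BL/6 replicate 4 and Ccl3 at 1.94 log2 CPM in B6.SLE123 replicate 4.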

How the results depend on the processing

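All 165 values for whole lists, over 14 alternative settings, kept within a set limit. Counts of calls in either direction stayed within 1.5 times those reported. The median of the receptor genes stayed within the standard deviation, between mice of a strain, of their mean level. The limit on counts is loose for short lists, and the receptor genes and adaptor chains could not pass it upwards. The balance of higher and lower calls was not part of this check. For all genes it was 3683 higher and 3673 lower, and 3321 and 3630 without B6.SLE123 replicate 4. Of 587 values for single genes, 567 changed neither sign nor call. The receptor genes called were 7 or 8 in every setting, 7 of them lower, and their median was from -1.35 to -1.25 when each mouse was left out. The eighth was Clec4e, which passed with DESeq2 (log2 fold change 0.93, DESeq2 adjusted p = 0.0362) and with the replicate block. It also passed without B6.SLE123 replicate 4 or C57BL/6 replicate 2, so its call depended on the model and on single mice. Correlations of same-numbered mice, on deviations from the strain means, were from 0.076 to 0.23. The means with other numbers (-0.079 to -0.025) are nearly fixed by these values, since deviations cancel out within a strain, and add no comparison. The same-number correlations were not all over 0.1. Not every mouse correlated best with its own number, so the numbers were not taken as pairs. With the replicate block, 8 receptor genes (Clec4e at 0.84, edgeR adjusted p = 0.0413) and 7183 of all genes were called, against 7 and 7356. Clec4a4 passed with the block (0.22, edgeR adjusted p = 0.00411) and with DESeq2 (0.22, DESeq2 adjusted p = 0.0452). Directions reversed near 0 only for Card9, from -0.059 to 0.025 over the fits without a mouse, with 0.025 and 0.020 above 0, and for Clec5a, from -0.16 to 0.0086. Without a mouse, the calls were from 6496 to 7013 for all genes and 15 to 19 for other C-type lectins. They were 10 to 12 for proximal signalling, 7 to 10 for the CARD9 arm and 6 to 9 for the inhibitory phosphatases and adaptors. Counts of 14 to 190 per mouse limit Clec4d, Clec4e and Clec5a.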
